A study of Mus musculus with 4 samples.

Results

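The genes of the BCL2 family decide at the mitochondrion between survival and death of a cell, and 10 of them were examined in Treg cells held with TSLP or PBS. The members were the rows named Bcl2, Bcl2l1, Mcl1, Bax, Bak1, Bcl2l11, Bbc3, Pmaip1, Bad and Bid, out of 24418 genes listed. They comprised 3 pro-survival and 7 pro-death genes, and the comparison asks whether either side differed after TSLP. The cells were sorted from spleens and lymph nodes of Foxp3YFP-Cre mice aged 8 to 12 weeks, which make Cre fused to yellow fluorescent protein from the Foxp3 locus, in both groups alike. Exposure to TSLP (100 ng/mL) or PBS lasted 3 h, and no other allele or agent is named for these samples. Each group had 2 samples, called PBS 1, PBS 2, TSLP 1 and TSLP 2. The sources used here do not say whether they came from separate animals, and p-values therefore measure only the spread between these samples. In bulk RNA, fewer cells of a type and less RNA per cell cannot be told apart.

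In the intrinsic pathway of apoptosis, BCL2, BCL-XL (encoded by Bcl2l1) and MCL1 hold the effectors BAX and BAK in check on the outer mitochondrial membrane. BH3-only proteins sense stress or the loss of growth factors and bind the pro-survival proteins, or the effectors directly, through a short helix called BH3. Freed BAX and BAK open pores through which cytochrome c escapes and activates caspases. TSLP and the cytokines of the common gamma-chain family signal through STAT5 in T cells, and pro-survival genes of this family are among the known STAT5 targets. Treg cells are known to depend on MCL1 and to be culled through BIM, the protein of Bcl2l11.

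One library, PBS 1, stood apart. Among 2635 genes with a mean normalized count (reads divided by the size factor of the library) of at least 1000, its log2 ratio to the other libraries was lower the longer the exons. Spearman's rho was −0.659, computed across genes, and genes are not independent replicates. It was 0.571 for PBS 2, 0.400 for TSLP 1 and 0.307 for TSLP 2. Each library was set against the mean of the others, so that PBS 1 is part of the reference for these values. Foxp3, the factor that defines Treg cells, was at 222 and 472 cpm (reads scaled to the reads on genes) in PBS 1 and 2, against 407 and 469.6 in TSLP 1 and 2, and was thus lowest in PBS 1. So were Il2ra and Ikzf2, whereas Tnfrsf18 (532 cpm against 348 to 427 in the others) and Ctla4 (1284 against 1142 to 1253) were highest there. The 5 Treg markers summed to 2947 to 3600 cpm. The 2 T cell markers summed to 744 to 863 cpm, most of it Cd4.

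Markers of other cells were scarce. Of the B cell markers, Cd79b was at 0.618 cpm in PBS 1 and at 1.70 to 8.47 in the other libraries, Cd79a was at 0 in PBS 1 and at 0.876 to 4.01 in the others, and Ms4a1 was at 0 in all libraries but PBS 2. The 2 CD8 T cell markers summed to 7.83 to 13.4 cpm, most of it Cd8b1. The 6 myeloid markers summed to 17.6 and 11.9 cpm for PBS, above the 8.59 and 9.83 for TSLP. Of these, Cd68 was at 15.4 and 6.15 cpm for PBS and 5.02 and 1.56 for TSLP, and Itgam at 2.03 and 1.77 for PBS and 0.340 and 0.681 for TSLP, both without overlap. Lyz2 was at 0.0883 cpm in PBS 1 and at 3.15 to 4.01 elsewhere, Csf1r and S100a8 were highest in TSLP 2, at 2.63 and 1.07 cpm, and Adgre1 was at 0 throughout. The part of these differences in the results was not tested.

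Limma called no change of any member between the groups. Its adjusted p was 0.9999 for each of the 10 members, and 0 of the 11392 genes tested (0%) passed an adjusted p of 0.05. At an unadjusted p of 0.05 it called 192 genes (1.69%), among them 0 of the members, and edgeR and DESeq2 called 0 of the members too. All 10 had passed the filter on low values, with a normalized count of 91.0 or more in each library. Both TSLP values exceeded both PBS values in 3 members, Bcl2, Bak1 and Bcl2l11, beside 14.5% of all genes tested. The reverse held for 1 member, Bbc3, beside 14.4%, and with so few members neither count was read as a departure from that background. The median log2 fold change (TSLP against PBS) was −0.04 over the members and 0.01 over all genes tested, with 5 members above 0 and 5 below. Without PBS 1 the median was 0.17, with 8 members above 0, beside 48.2% of all genes in that fit. Without PBS 2 it was −0.24, with 4 members above 0, beside 49.4% of all genes. It was 0.12 without TSLP 1 and 0.02 without TSLP 2, so that the sign of the median turned on leaving out PBS 1, TSLP 1 or TSLP 2.

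**Figure D1:**
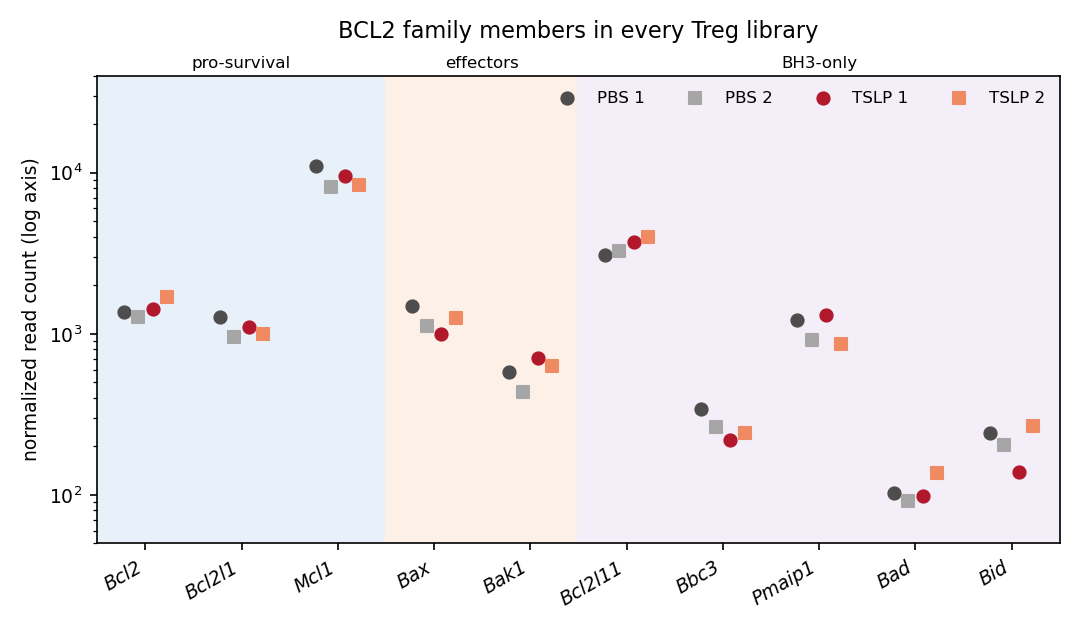
Normalized read count (log axis) of the 10 members in each of the 4 libraries, with colour for the group and marker shape for the replicate. Mcl1 lies highest in every library and Bad lowest, and the groups overlap in all members but Bcl2, Bak1, Bcl2l11 and Bbc3.

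Mcl1 was by far the most abundant member. Per kb of exon its normalized count was 2701 ± 386 (SD over 4 libraries), above 99.2% of the 13376 genes with a read and a known exon length. Bax followed with 767 ± 133, then Bcl2l11 with 438 ± 51.8 and Pmaip1 with 395 ± 81.4. Bak1 stood at 245 ± 48.0, Bcl2l1 at 237 ± 31.2, Bcl2 at 157 ± 20.3 and Bbc3 at 125 ± 24.7. Bid, at 60.0 ± 15.8, and Bad, at 41.9 ± 7.72, came last. The ranges over the libraries overlapped between the neighbours Bcl2l11 and Pmaip1, Bak1 and Bcl2l1, Bcl2 and Bbc3, and Bid and Bad, but between no other neighbours in this order. Within each library, though, Bid was above Bad in 4 of 4. These levels rest on the length of all annotated exons, 9157 bases for Bcl2 against 1576 for Bax, and understate a gene that uses a shorter transcript.

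Among the pro-survival genes, only Bcl2 had groups that did not overlap. Its protein binds BIM and BAX, and the gene spans 106538178 to 106714274 of chromosome 1 (mm10, reverse strand). PBS 1 held 1401 reads of Bcl2, PBS 2 held 1265, TSLP 1 held 1515 and TSLP 2 held 1624. As normalized counts these averaged 1312 ± 65.2 (SD, n = 2) for PBS against 1562 ± 191 (SD, n = 2) for TSLP. TSLP 2 was the highest library, while TSLP 1 lay only slightly above PBS 1. On the scale of log2(normalized count + 1), the log2 fold change of Bcl2 was 0.25 (SE 0.22). All fold changes here use that scale, except in the alternatives with edgeR, DESeq2 or another pseudocount. The 95% confidence interval of the fold ran from 0.838 to 1.68. Bcl2 has the longest exons of the members, and after removal of the trend over exon length from each library its log2 fold change was 0.13.

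Mcl1, at 95658788 to 95663176 of chromosome 3 (forward strand), encodes a short-lived protein that restrains BAK and BIM. Its reads numbered 11338 and 8099 in PBS 1 and 2, against 10074 and 7980 in TSLP 1 and 2. Replicate 1 exceeded replicate 2 by a log2 ratio of 0.44 in the PBS group and 0.19 in the TSLP group, and after normalization both TSLP libraries lay between the PBS libraries. The log2 fold change of −0.09 (SE 0.25) was smaller in size than either replicate difference, and without PBS 1 it was 0.13.

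Bcl2l1, a STAT5 target in lymphocytes at 152780668 to 152831728 of chromosome 2 (reverse strand), gave similar values. Its reads numbered 1320 and 957 in PBS 1 and 2, against 1170 and 958 in TSLP 1 and 2. Here too both TSLP libraries lay between the PBS libraries after normalization. TSLP gave a log2 fold change of −0.08 (SE 0.24), and of 0.13 without PBS 1. The interval of the fold was 0.648 to 1.39 for Bcl2l1 and 0.634 to 1.40 for Mcl1.

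Of the effectors, Bak1 was higher in both TSLP libraries and Bax was not. Bak1 encodes BAK, which resides on mitochondria, and spans 27019810 to 27029009 of chromosome 17 (reverse strand). PBS 1 held 594 reads of Bak1, PBS 2 held 437, TSLP 1 held 755 and TSLP 2 held 606. Its normalized counts averaged 506 ± 97.9 (SD, n = 2) for PBS against 672 ± 55.1 (SD, n = 2) for TSLP. The groups did not overlap, and PBS 2 was the lowest library. The log2 fold change of 0.42 (SE 0.27) was the highest of the 10 members. It was 0.62 without PBS 1, where it passed an unadjusted but not an adjusted p of 0.05 (limma, adjusted p = 0.979, beside 2.31% of all genes under the unadjusted threshold), and 0.22 without PBS 2. With the exon length trend removed it was 0.54 and again passed the unadjusted threshold alone (limma, adjusted p = 0.9995, beside 2.42% of the 10944 genes with a known exon length). The adjusted p for Bak1 from limma, edgeR or DESeq2 ranged from 0.640 to 1.0 over the 17 settings.

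Bax encodes the effector that moves from the cytosol to mitochondria, and is a target of p53. It spans 45461697 to 45466898 of chromosome 7 (reverse strand), and 192 of its 1576 exonic bases lie in the annotated gene Gm45808 as well. Its reads numbered 1528 and 1111 in PBS 1 and 2, against 1055 and 1194 in TSLP 1 and 2. PBS 1 was thus highest, and TSLP 2 lay between the PBS libraries. For Bax the log2 fold change was −0.20 (SE 0.25), 0.00 without PBS 1 and −0.05 after removal of the exon length trend.

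Bcl2l11 had the most reads of the BH3-only members and the steadiest values. Its protein BIM binds every pro-survival member and limits the lifespan of T cells deprived of cytokine, and the gene spans 128126038 to 128162547 of chromosome 2 (forward strand). PBS 1 held 3204 reads of Bcl2l11, PBS 2 held 3257, TSLP 1 held 3928 and TSLP 2 held 3843. Its normalized counts averaged 3182 ± 108 (SD, n = 2) for PBS against 3858 ± 223 (SD, n = 2) for TSLP. The groups did not overlap, and replicates differed by a log2 ratio of only −0.07 for PBS and −0.12 for TSLP. TSLP gave a log2 fold change of 0.28 (SE 0.21), with an interval of the fold from 0.872 to 1.68. Leaving out each library in turn gave 0.22 to 0.34, the narrowest such range of the 10 members, and removal of the exon length trend gave 0.18.

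Bbc3, which encodes the p53 target PUMA, was the one member lower in both TSLP libraries. It spans 16308393 to 16318205 of chromosome 7 (forward strand). PBS 1 held 350 reads of Bbc3, PBS 2 held 264, TSLP 1 held 232 and TSLP 2 held 230. Its normalized counts averaged 302 ± 53.1 (SD, n = 2) for PBS against 229 ± 15.4 (SD, n = 2) for TSLP. The gap between the groups was small, from 264 in PBS 2 to 240.4 in TSLP 2. This made a log2 fold change of −0.38 (SE 0.34), of −0.20 without PBS 1 and of −0.25 after removal of the exon length trend.

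Bcl2l11 and Bbc3, whose values lay in opposite directions, are both known targets of FOXO factors, which cytokine signals through PI3K and AKT restrain. Promoter windows of 300 bases (250 before to 50 after a start site, RefSeq, GRCm38.p6) were read for 9 members in 15 windows. The FOXO motif GTAAACA, searched on both strands, occurs in 3.65% of all 32851 windows and in 2 windows of the members. Both matches are shown with the bases around them, 5′ to 3′ on the strand of the gene, which is the forward strand, with the motif or its reverse complement in capitals.
Bcl2l11, chr2:128125801-128125827: agacactaggGTAAACAcgccggggtg
Bbc3, chr7:16310084-16310110: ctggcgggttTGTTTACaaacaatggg
The match begins 227 bases before the start site of its window for Bcl2l11 and 167 bases before it for Bbc3. The STAT5 motif TTCNNNGAA, which reads the same on both strands, occurs in 8.30% of all windows and in 0 of the 15 windows of the members. These are matches of letters within short windows and do not show binding or its absence.

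The other BH3-only members overlapped between the groups. Pmaip1 encodes NOXA, a ligand of MCL1. Its reads numbered 1260 and 918 in PBS 1 and 2, against 1393 and 823 in TSLP 1 and 2. Replicate 1 exceeded replicate 2 by a log2 ratio of 0.41 in the PBS group and 0.61 in the TSLP group, against a log2 fold change of 0.00 (SE 0.28). This fold change was −0.30 without TSLP 1 and 0.31 without TSLP 2, and 0.21 without PBS 1 and −0.20 without PBS 2.

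Bid encodes a protein that caspase-8 cuts and that links death receptors to mitochondria. It spans 120891930 to 120916853 of chromosome 6 (reverse strand), and its reads numbered 249 and 203 in PBS 1 and 2, against 148 and 257 in TSLP 1 and 2. The TSLP libraries were the lowest and the highest, with a log2 fold change of −0.19 (SE 0.43). Without TSLP 1 the log2 fold change of Bid was 0.28, and without TSLP 2 it was −0.66. Bad encodes a binder of BCL2 and BCL-XL that kinases inactivate downstream of growth factors. It spans 6941861 to 6951899 of chromosome 19 (forward strand), and its reads numbered 106 and 91 in PBS 1 and 2, against 105 and 130 in TSLP 1 and 2. Its log2 fold change of 0.26 (SE 0.50) rested on TSLP 2, without which it was 0.03.

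The exons of Bid share 628 of their 3550 bases with Bcl2l13 on the opposite strand, and those of Bad share 524 of 2558 with Gpr137. On the opposite strand too, those of Bak1 share 177 and 437 of 2407 with entries of Ggnbp1, which had at most 9 reads. Those of Bcl2 share 558 of 9157 with D630008O14Rik. The libraries were made with a directional kit. The strand setting of the counting is not given in the sources used here, and reads of these pairs may not have been told apart. The interval of the fold lay within 2-fold either way for 6 members, and reached beyond it for Bak1, Bbc3, Bad and Bid. In 7 of the 10 members the replicates of a group differed by more than the groups did, the exceptions being Bak1, Bcl2l11 and Bbc3.

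**Figure D2:**
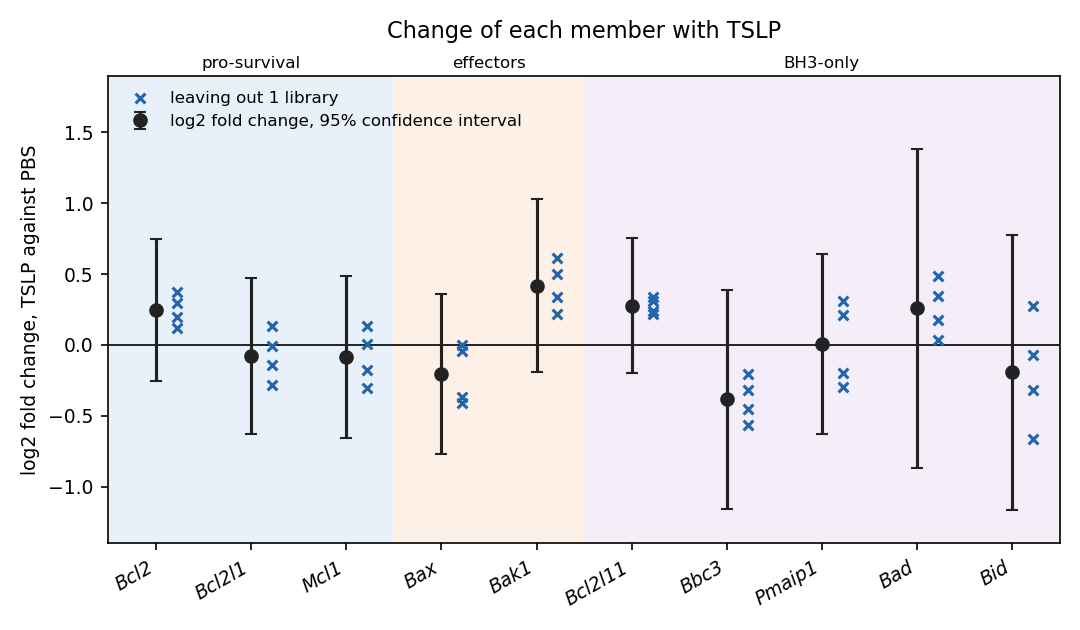
Log2 fold change of each member, TSLP against PBS, with its 95% confidence interval from limma (points and bars) and, as crosses, the values obtained on leaving out 1 library at a time. Every interval contains 0, and the values with a library left out stay on 1 side of 0 for Bcl2, Bak1, Bcl2l11, Bbc3 and Bad.

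**Figure D3:**
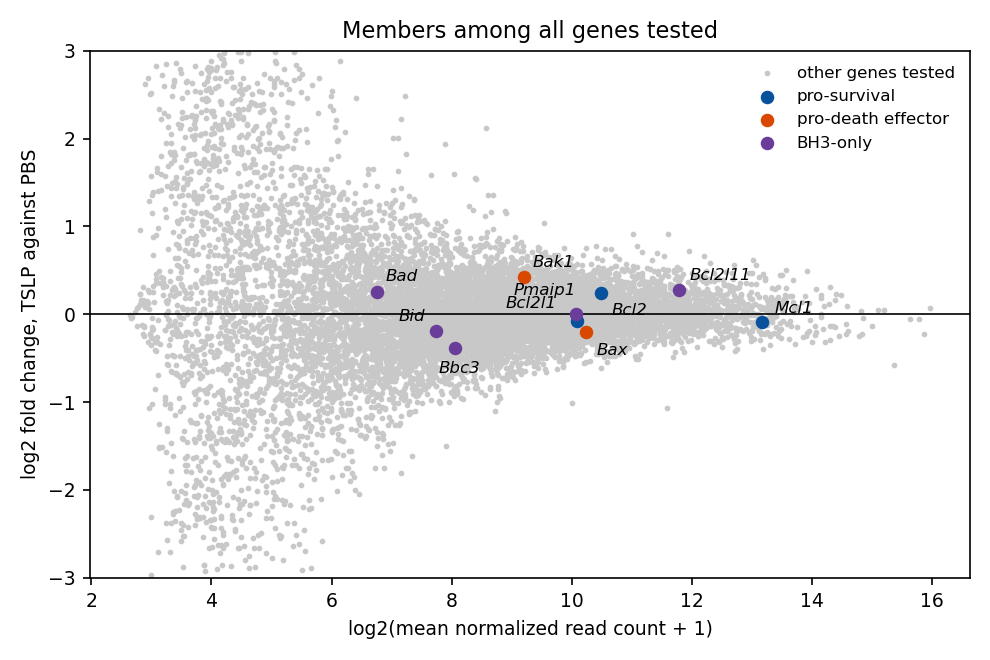
Log2 fold change (TSLP against PBS) over the mean normalized count for the 11392 genes tested, with the members marked, and 227 genes beyond the vertical axis not drawn. The members lie within the cloud of other genes, between −0.38 for Bbc3 and 0.42 for Bak1.

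Set against each other, the pro-survival and pro-death members did not differ in proportion beyond the spread between libraries. Summed per kb of exon, the pro-survival members had a normalized count of 3642 and 2718 in PBS 1 and 2, against 3173 and 2844 in TSLP 1 and 2. The pro-death members had 2281, 1846, 2048 and 2112 in the same order. Both sums were highest in PBS 1 and lowest in PBS 2. The pro-survival to pro-death ratio was 1.60 for PBS 1, 1.47 for PBS 2, 1.55 for TSLP 1 and 1.35 for TSLP 2, and the groups overlapped. As log2 ratios these averaged 0.62 ± 0.08 (SD, n = 2) for PBS against 0.53 ± 0.14 (SD, n = 2) for TSLP, a difference of −0.09. Leaving out 1 library gave differences from −0.19 (without TSLP 1) to 0.01 (without TSLP 2), with −0.03 without PBS 1 and −0.15 without PBS 2. Mcl1 held 85.8% to 88.3% of the pro-survival sum. Without Mcl1 the ratio was 0.187 and 0.188 for PBS and 0.193 and 0.191 for TSLP, groups that did not overlap but differed by a log2 ratio of only 0.04. The median log2 fold change was −0.08 over the 3 pro-survival and 0.00 over the 7 pro-death members.

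**Figure D4:**
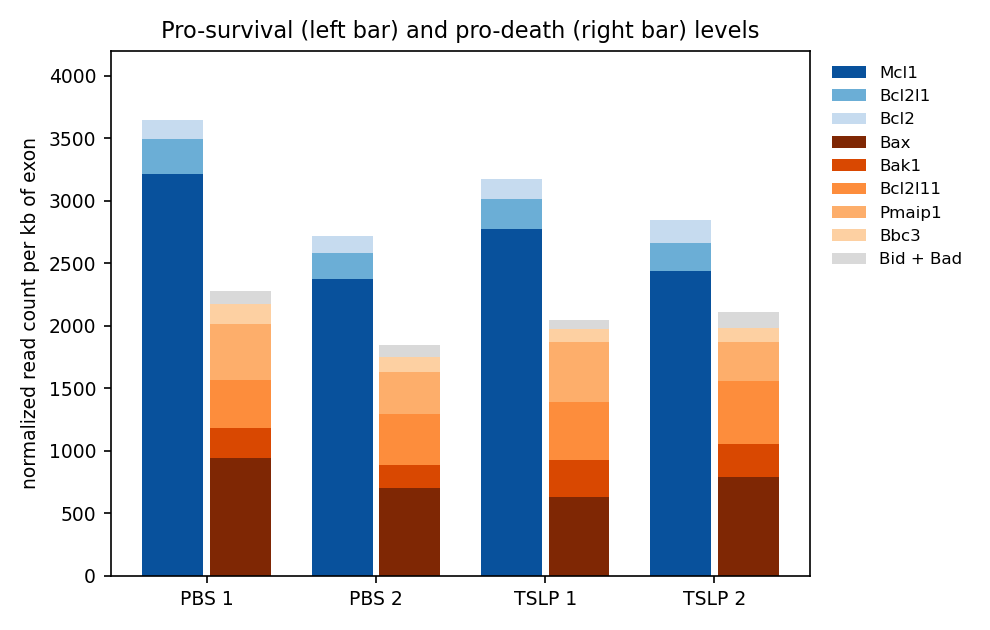
Normalized read count per kb of exon of the pro-survival (left bar) and the pro-death members (right bar) in each of the 4 libraries, stacked by gene. The pro-survival sum exceeds the pro-death sum in every library, by a ratio of 1.35 to 1.60, and Mcl1 makes up most of it.

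The proportions of single genes were compared as well. Of the 21 ratios of a pro-survival to a pro-death member, 5 were higher in both TSLP libraries, 2 were lower in both and 14 overlapped between the groups. The lower ratios both had Bak1 as the pro-death member. Per kb, Mcl1 to Bak1 was 13.4 and 13.1 for PBS and 9.40 and 9.27 for TSLP, and Bcl2l1 to Bak1 was 1.17 and 1.15 for PBS and 0.813 and 0.830 for TSLP. In these ratios, picked because their groups did not overlap, the replicates lay closer to each other than the groups did. The higher ratios were those of each pro-survival member to Bbc3, and of Bcl2 to Bax and to Bid. Bcl2 to Bbc3 was 0.928 and 1.11 for PBS and 1.51 and 1.64 for TSLP, and Bcl2 to Bax was 0.158 and 0.196 for PBS and 0.247 and 0.234 for TSLP. Bcl2 to Bcl2l11, by contrast, overlapped, at 0.383 and 0.341 for PBS and 0.338 and 0.371 for TSLP. The 21 ratios share their genes, no such count over other pairs of genes was made, and they are given as a description from which nothing is read.

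Of 15 further genes of the family, 10 passed the filter, 5 with a log2 fold change above 0 and 5 below (median 0.01). The median was −0.14 without PBS 1, where 3 were above 0 and 7 below, −0.08 without PBS 2, 0.28 without TSLP 1 and −0.21 without TSLP 2. Of those that failed the filter, Hrk and Bcl2l10 had 0 reads in every library. Bok had 16 reads and Bcl2l14 had 37 in PBS 1, and both had 0 elsewhere. Bcl2l15 had 10 and 46 reads in PBS 1 and 2, against 7 and 0 in TSLP 1 and 2. Bcl2a1b and Bcl2a1d are nearly identical copies that encode the pro-survival protein A1, so that reads may be split among them, and had log2 fold changes of 0.12 and −0.29. Their copy Bcl2a1a had 1 and 50 reads in PBS 1 and 2, against 5 and 14 in TSLP 1 and 2. The log2 fold change was 0.17 for Bcl2l2, which encodes pro-survival BCL-W, −0.36 for Bcl2l12 and 0.35 for Bcl2l13. Bmf, which encodes a BH3-only protein held by the cytoskeleton, had 0 and 55 reads in PBS 1 and 2, against 12 and 21 in TSLP 1 and 2, and Bik had 12, 0, 7 and 10 in the same order. For both genes the spread within the PBS group exceeded any difference between groups. Bnip3, which encodes a mitophagy receptor, had 81, 37, 35 and 0 reads in that order. Its groups did not overlap, with a log2 fold change of −3.24 (SE 1.66, limma, adjusted p = 0.9999). The size of this change rested on the 0 in TSLP 2, since TSLP 1 (normalized count 33.0) lay close to PBS 2 (37.0). Its relative Bnip3l, with 1632 to 1956 reads, had a log2 fold change of −0.10.

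Downstream of the pores act the apoptosome and the caspases. Of 8 such genes, 4 had a log2 fold change above 0 and 4 below (median 0.09). These numbers were 2 and 6 without PBS 1, 6 and 2 without PBS 2, 5 and 3 without TSLP 1, and 6 and 2 without TSLP 2. Casp8, the initiator caspase of death receptors and the gene with the highest normalized count of them, had 2004 and 2011 reads in PBS 1 and 2, against 1730 and 1665 in TSLP 1 and 2. Its groups did not overlap, with a log2 fold change of −0.23 (SE 0.21, limma, adjusted p = 0.9999). Apaf1, the scaffold of the apoptosome, had 1214, 1429, 1905 and 1451 reads in that order and a log2 fold change of 0.35. Its groups did not overlap either, with both TSLP values above both PBS values. Of 6 caspase inhibitors and their antagonists, 2 were above 0 and 4 below (median −0.16), or 3 and 3 without PBS 2 (median −0.03). Birc3, an inhibitor of apoptosis induced by NF-kB and the gene with the highest normalized count of these, had a log2 fold change of 0.19.

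In the death receptor pathway, 2 of 8 genes had a log2 fold change above 0 and 6 below (median −0.17), or 5 and 3 without PBS 1, but 2 and 6 without PBS 2. For Cflar, the inhibitor of caspase-8, it was 0.30. Cflar had the highest normalized count there, but with its long exons only 118 per kb, below Fas with 283. Tnfrsf1a, a TNF receptor, had 606 and 423 reads in PBS 1 and 2, against 403 and 192 in TSLP 1 and 2. Its log2 fold change of −0.85 (SE 0.38, limma, adjusted p = 0.9999) had the smallest unadjusted p of these lists.

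Among 12 regulators of the members, 4 were above 0 and 8 below (median −0.03), or 8 and 4 without TSLP 2. Huwe1, a ligase that marks MCL1 for degradation, had 7567 and 16292 reads in PBS 1 and 2, against 15032 and 13952 in TSLP 1 and 2, and Usp9x, the enzyme that removes this mark, had 3872, 7419, 8478 and 7236 in that order. Both were lowest in PBS 1 by a wide margin. Of the 6 transcription factors, E2f1 had 107, 134, 67 and 33 reads in that order, with no overlap and a log2 fold change of −1.32 (SE 0.61). For Foxo3 it was 0.45 (SE 0.42), for Trp53 and for Stat5b −0.01, for Stat5a −0.04 and for Foxo1 −0.05. Of 12 other p53 targets 11 were tested, 5 above 0 and 6 below (median −0.03), or 7 and 4 without PBS 1 and 8 and 3 without TSLP 2. Trp53inp1, with the highest normalized count of them, had a log2 fold change of 0.30 (SE 0.26). The p53 targets at the ends of the range were Aen, with 0.83 (SE 0.44) and no overlap, and Perp, with −0.61 (SE 0.59). Of the 55 genes tested in these lists, 22 lay above 0 and 33 below, or 31 and 24 without TSLP 2. Over all genes tested, 51.2% lay above 0 with no library left out. Both TSLP values exceeded both PBS values in 10 of the 55, beside 14.5% of all genes tested. Bcl2l13, Apaf1, Birc3, Usp9x, Trp53inp1 and Aen were among the 10. The reverse held for 8, with Bnip3, Bcl2l12, Casp8, Tnfrsf1a and E2f1 among them, beside 14.4%. Neither count was read as a departure from that background. Of the 55 genes, 0 had an unadjusted limma p under 0.05. Without PBS 2, 9 of the 55 did (Bmf, Casp9, Xiap, Cflar, Huwe1, Usp9x, Ccng1, Zmat3 and Trp53inp1), a share near the 16.3% of all genes in that fit. Without TSLP 1, 2 of the 55 did (Bnip3 and Tnfrsf1a), beside 1.47% of all genes.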

How the data were processed

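RNA-seq libraries of 4 samples (2 PBS, 2 TSLP) were analysed. The authors aligned single-end reads to mm10 (Hisat2), then took gene counts from HTSeq. The deposited signal is the count after division by a DESeq2 size factor. Annotation and strand setting are not given in the sources used here, and 27 gene names had become dates. Multiplying back gave a whole number of reads for 100% of values (tolerance 0.01), and 10271571 to 11761234 reads on genes per library. A gene at 0 may have an expected count of up to 3 reads, by counting error only.

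The log2(normalized count + 1) values were fitted in limma 3.58.1 (R 4.3.3) with its trend option, after requiring a normalized count of 10 in 2 libraries. Benjamini-Hochberg adjustment covered every gene tested. As alternatives, edgeR 4.0.16 and DESeq2 1.42.0 took the recovered reads; each called 0 genes at an adjusted and 234 at an unadjusted p under 0.05. Further alternatives were pseudocounts, filters, scalings, removal of the exon length trend, a replicate block and leaving out each library. The fits were tested on simulated data. These were drawn without a trend over exon length, and no result here rests on them. Exon lengths and positions came from GENCODE M21 (23307 names matched).

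Members and lists were chosen with earlier results of these data known. Named were the members, the other BCL2 family genes tested and, in each further list, the gene with the highest mean normalized count and any with an unadjusted p under 0.05. Genes named beyond these, and the family genes that failed the filter, were chosen after their values were seen. One cell type marker is not reported here.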

Additional observations from a re-analysis of the deposited data

How the results depend on the processing

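By the pairing check, the log2 ratio of replicate 1 to 2 with PBS correlated with that with TSLP by 0.00072 over 11392 genes. The replicate numbers were therefore not taken to pair the samples. Such a value cannot exclude pairing, as the exon length trend of PBS 1 enters the PBS ratio. For quantitative PCR of Treg cells under the same conditions the authors used a paired t-test. How the sequenced samples were collected is not described further in the sources used here. With the replicate number as a block, limma gave 258 genes and edgeR 215 at an unadjusted p under 0.05, and no call of a member. An adjusted p under 0.05 was reached by 0 genes in each of the 17 settings. At an unadjusted p under 0.05 there were 192 with limma as described, 427 without its trend over expression, 358 without a filter on low values, and 79 (without TSLP 2) to 1858 (without PBS 2) on leaving out a library, where the lone sample is assumed to vary like the others. The log2 fold changes of the members kept their direction in 119 of 120 comparisons over the other settings, the exception being Pmaip1 with quantile normalization (−0.020). On leaving out a library, Bcl2l1 ranged from −0.28 to 0.13, Mcl1 from −0.30 to 0.13, Bax from −0.41 to 0.0027, Pmaip1 from −0.30 to 0.31 and Bid from −0.66 to 0.28. Bcl2 (0.12 to 0.37), Bak1 (0.22 to 0.62), Bcl2l11 (0.22 to 0.34), Bbc3 (−0.56 to −0.20) and Bad (0.03 to 0.49) kept their direction. The log2 ratio of pro-survival to pro-death sums was higher with TSLP by 0.035 without Mcl1, an alternative chosen after seeing the data, since the sum then rests on Bcl2 and Bcl2l1. With all members it was lower by 0.086, and leaving out a library gave differences from −0.19 to 0.015. It also depended on the weighting, at −0.17 for sums not divided by exon length and 0.0035 with each member weighted equally. The median log2 fold change of the pro-survival members lay below that of the pro-death members by 0.08, and leaving out a library gave differences from −0.42 (without TSLP 1) to −0.024, and the cause was not tested. With 2 samples a group an exact permutation test of a single value cannot give a two-sided p below 0.333, and Bad, Bid and Bbc3 had the widest intervals and the fewest reads.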
